A study of Mus musculus with 12 samples.

Results

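The guanylate-binding proteins are interferon-induced large GTPases, and the 10 genes described here (Gbp2, Gbp2b, Gbp3, Gbp4, Gbp5, Gbp6, Gbp7, Gbp8, Gbp9 and Gbp10) were chosen by name among the 47937 genes counted in C57BL/6 mouse macrophages. All 10 were low or undetected in resting cells and were called higher after IFNγ + LPS, where 37.1% of all genes tested were higher. Of the 10, 6 passed the filter on low counts only through the stimulated groups and so had to differ. With DGAT1i, an inhibitor of triacylglycerol synthesis, all 10 were lower in the IFNγ + LPS cells, where 16.3% of all genes tested were lower and 13.5% higher, but by very different amounts: Gbp2b kept 11.8% of its level, Gbp10 24.3%, Gbp8 40.2% and Gbp4 45.1%, whereas Gbp6, Gbp9, Gbp7, Gbp3, Gbp2 and Gbp5 kept between 72.7% and 82.0%. The values of Gbp6 and Gbp10 are uncertain, since their coding sequences are nearly identical and reads could have been given to either.

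The RNA came from bone marrow cells of C57BL/6 mice aged 6 to 8 weeks. They were cultured for 7 days with CSF-1 (20 ng/ml), which drives marrow cells to become macrophages. There were 4 groups of 3 libraries. M0 cells were left resting, and IFNγ + LPS cells received 50 ng/ml IFNγ and 20 ng/ml LPS for 18 h. The remaining groups, M0 + DGAT1i and IFNγ + LPS + DGAT1i, had 50 µM T863 over the same 18 h. T863 is a small molecule that blocks DGAT1, an enzyme of the last step of triacylglycerol synthesis. All groups share the strain and the CSF-1 culture, and none carries a genetic change. In 2 of the 3 M0 + DGAT1i samples the description gives the drug name with another last digit, which was read as T863. No source used here ties a library to a separate mouse, so p-values measure the spread between these libraries.

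Libraries held between 4996014 and 6621671 reads on genes, with a median of 6099313.5. After TMM scaling, 1 CPM (a read count scaled to the size of its library) was worth between 4.28 and 7.58 reads. Macrophage markers were present in all groups (8 of 8, with a summed level between 7923 and 18070 CPM), and markers of T and NK cells, mast cells and fibroblasts were at or near 0. Summed markers of neutrophils and their precursors ranged from 31.6 to 38.7 CPM in M0, from 15.2 to 25.5 in IFNγ + LPS, from 22.9 to 29.0 in M0 + DGAT1i and from 63.0 to 81.0 in IFNγ + LPS + DGAT1i, with Ly6g at 0 throughout. Dendritic cell markers summed to between 5.62 and 7.16 CPM in IFNγ + LPS and to between 1.04 and 1.40 with DGAT1i, and B cell markers to no more than 2.66 CPM in any library.

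Guanylate-binding proteins bind GTP, assemble into coats on bacteria and on the vacuoles of intracellular parasites, and open them to further attack. They also help bacterial LPS to reach caspase-11, and so take part in inflammasome activation and pyroptosis. IFNγ induces their genes through the kinases JAK1 and JAK2 and the transcription factor IRF1. In mice the genes lie in 2 clusters. On GRCm38, Gbp5 (chr3:142493978-142522344), Gbp7 (chr3:142530342-142550149), Gbp3 (chr3:142560026-142573209), Gbp2b (chr3:142594847-142619179) and Gbp2 (chr3:142620602-142638008) follow each other on the plus strand of chromosome 3. Gbp8 (chr5:105014150-105139540), Gbp9 (chr5:105077630-105139539), Gbp4 (chr5:105115767-105139586), Gbp10 (chr5:105215699-105239533) and Gbp6 (chr5:105270702-105293698) are on the minus strand of chromosome 5. All 10 are annotated as protein coding. The span of the 5 members on chromosome 3 holds 2 other annotated genes and that on chromosome 5 holds 1, and none of these passed the filter on low counts. Gbp11, a family member annotated as a polymorphic pseudogene, lies outside that span next to Gbp6 and did pass.

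The ends of the coding sequences show one known difference between the proteins. Gbp2, Gbp2b and Gbp5 are lipid-modified at a cysteine at the fourth place from their end (prenylation), which anchors them in membranes. The last 30 coding bases of the longest coding transcript in GENCODE M21 are shown with the final 4 codons before the stop in capitals where the first of them is a cysteine codon, TGC or TGT.
Gbp2 coding end: aaatcgtctgggaagTGCACTATACTCtga
Gbp2b coding end: cctccacctcgatcaTGCACCATACTTtaa
Gbp5 coding end: agacatcatcatgacTGTGTTATAAGCtaa
Gbp4 coding end: tcactccttaggaaaaaggatagactgtga
Gbp6 coding end: taccttgtccgttatctaaagcatttatga
Gbp10 coding end: taccttgtccgttatctaaagcatttatga
Of the 10 genes, only Gbp2, Gbp2b and Gbp5 had a cysteine codon there. Gbp6 and Gbp10 ended in the same 30 bases. Over the whole coding sequence, Gbp6 and Gbp10 were identical at 1806 of 1836 aligned positions (98.4%), with 1 unbroken identical run of 421 bases. Gbp2 and Gbp2b were 82.5% identical, Gbp3 and Gbp7 76.0%, and Gbp4 was 87.1% identical to both Gbp6 and Gbp9.

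This likeness bears on how reads could be assigned. Of all 50-base stretches of its annotated transcripts, Gbp10 shared 84.1% with a transcript of another gene and Gbp6 shared 70.7%. The 2 genes held 2801 such stretches in common, which is 73.3% of those of Gbp10 and 46.0% of those of Gbp6. A readthrough gene, Gm43302, also covers exons of both, with 46.3% of the exon bases of Gbp10 and 29.0% of those of Gbp6. It had 3 reads in all libraries together, which does not show how reads on the shared exons were counted. For Gbp8 the shared part was 18.1% and for Gbp7 12.7%, and for the other 6 genes it lay between 1.44% and 8.05%. Gbp4, Gbp8 and Gbp9 also share up to 61 bases of a first exon. The treatment of reads with several matching positions, or on exons shared between genes, is not given in the sources used here. The values of Gbp6 and Gbp10 are therefore uncertain. A split of their reads between the copies, or a loss of reads on shared exons, cannot be told apart from a difference between the genes.

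**Figure D1:**
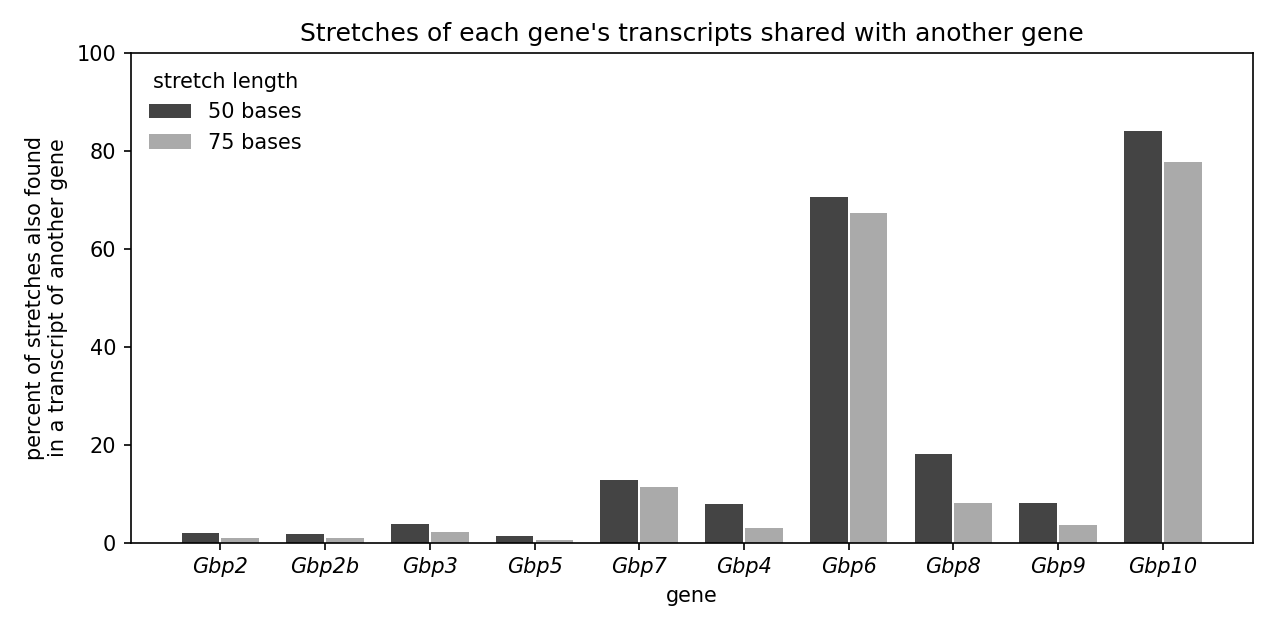
Share of each gene's transcript stretches of 50 (dark bars) or 75 bases (light bars) that also occur in a transcript of another gene, in percent, by gene. Gbp10 (84.1% and 77.8%) and Gbp6 (70.7% and 67.3%) stand above the other 8 genes.

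Promoters from 250 bases before to 50 bases after the start site were read from RefSeq (GRCm38.p6), which matched 5 of the 10 genes: Gbp2, Gbp2b, Gbp3, Gbp5 and Gbp7. Gbp4, Gbp6, Gbp8, Gbp9 and Gbp10 had no entry. Letters of 3 motifs were searched on both strands: GAAANNGAA, the core of the interferon-stimulated response element (ISRE) bound by IRF proteins; TTCNNNGAA, the GAS element of IFNγ-responsive genes, which reads the same on both strands; and GGANTTTCC, a core of the NF-κB site. Gbp2b and Gbp2 are shown because they responded differently to DGAT1i, and Gbp5 and Gbp7 because they held GAS letters. Capitals mark the matches, and all 4 windows are on the plus strand, at chr3:142594597-142594896 for Gbp2b, chr3:142620413-142620712 for Gbp2, chr3:142496684-142496983 for Gbp5 and chr3:142530086-142530385 for Gbp7.
Gbp2b promoter: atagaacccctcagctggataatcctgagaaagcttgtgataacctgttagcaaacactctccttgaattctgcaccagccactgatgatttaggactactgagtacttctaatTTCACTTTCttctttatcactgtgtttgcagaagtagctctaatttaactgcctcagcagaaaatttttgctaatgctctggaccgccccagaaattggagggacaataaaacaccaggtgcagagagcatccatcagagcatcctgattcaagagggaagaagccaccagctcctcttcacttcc
Gbp2 promoter: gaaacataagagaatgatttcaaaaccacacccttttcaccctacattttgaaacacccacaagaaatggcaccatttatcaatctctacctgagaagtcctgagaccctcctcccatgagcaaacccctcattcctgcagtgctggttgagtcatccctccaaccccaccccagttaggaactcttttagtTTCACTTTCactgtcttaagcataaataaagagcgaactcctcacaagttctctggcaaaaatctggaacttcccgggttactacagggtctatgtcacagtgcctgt
Gbp5 promoter: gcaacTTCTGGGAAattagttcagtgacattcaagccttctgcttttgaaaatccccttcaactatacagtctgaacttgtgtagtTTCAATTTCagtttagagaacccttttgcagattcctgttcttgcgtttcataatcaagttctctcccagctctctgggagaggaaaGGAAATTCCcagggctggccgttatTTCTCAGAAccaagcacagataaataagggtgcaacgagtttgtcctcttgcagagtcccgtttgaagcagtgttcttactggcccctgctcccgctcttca
Gbp7 promoter: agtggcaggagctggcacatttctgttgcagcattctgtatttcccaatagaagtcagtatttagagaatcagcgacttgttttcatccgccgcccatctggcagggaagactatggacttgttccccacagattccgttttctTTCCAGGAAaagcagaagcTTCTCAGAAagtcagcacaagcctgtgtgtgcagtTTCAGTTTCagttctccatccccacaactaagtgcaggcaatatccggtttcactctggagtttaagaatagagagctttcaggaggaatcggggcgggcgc
The ISRE core was present in all 5 genes, in 1 of the 2 windows of Gbp3. In Gbp2b it began 136 bases before the start site, and in Gbp2 58 bases before it, with the same letters, TTCACTTTC. Gbp5 and Gbp7 each held 2 GAS matches, and Gbp5 also held the NF-κB core 77 bases before its start. Of all 32851 windows of this length, 8.56% held the ISRE core, 8.30% the GAS letters and 1.25% the NF-κB core. These matches are descriptions of the letters and not of binding.

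To ask how far IFNγ + LPS raised the family, IFNγ + LPS was compared with M0. All 10 genes passed the filter on low counts and all 10 rose with edgeR's quasi-likelihood test at an adjusted p under 0.05, where 37.1% of the 11760 genes tested were higher and 36.2% lower. Only Gbp2, Gbp3, Gbp7 and Gbp9 had at least 10 reads in each M0 library, so the other 6 passed the filter only through the stimulated groups and had to differ. The median log2 fold change of the 10 was 11.46 as fitted, or 10.16 with genes at 0 to 3 resting reads at their bound or counting ratio, against 0.01 over all genes tested. In bulk RNA, more cells that express a gene and more RNA per cell cannot be told apart. Together the 10 genes took 0.00436% of the reads on genes in M0 (SD 0.00041, n = 3) and 1.76% in IFNγ + LPS (SD 0.05, n = 3).

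Gbp2, which coats bacteria and parasite vacuoles, was the most abundant in stimulated cells. It had 34, 25 and 38 reads in the M0 libraries and 47721, 61658 and 55522 in IFNγ + LPS, or 4.52 ± 1.05 and 10520 ± 535 CPM (SD, n = 3 each). No other gene of the family came close per length: its level in IFNγ + LPS was 4180 ± 213 RPKM (CPM per kilobase of annotated exon), and the next were Gbp5 at 428 ± 16.0, Gbp4 at 426 ± 16.2 and Gbp3 at 413 ± 12.2 RPKM, whose ranges overlapped. Gbp7 (162 ± 6.61 RPKM) and Gbp2b (161 ± 2.49 RPKM) also overlapped, and below them Gbp9 (133 ± 3.32), Gbp6 (64.4 ± 1.68), Gbp8 (42.8 ± 3.80) and Gbp10 (20.3 ± 1.09) each had a range of its own. The places of Gbp6 and Gbp10 in this order are uncertain, as are their read counts. The fitted rise of Gbp2 was 11.18 on the log2 scale (standard error, SE, 0.10, adjusted p = 1.506e-50 from edgeR).

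Gbp9 was the one member with a clear resting level. It had 178, 181 and 151 reads in the M0 libraries and 3237, 3913 and 3581 in IFNγ + LPS, so that 23.7 ± 2.45 CPM became 686 ± 17.2 (SD, n = 3 each). Its rise was the smallest, at 4.86 on the log2 scale (SE 0.07, adjusted p = 6.463e-52), which is 29.0-fold. The rises of Gbp7 (7.57), Gbp8 (7.60) and Gbp3 (9.14) on the log2 scale came next among the 6 genes with over 3 reads in M0. Gbp5, which promotes assembly of the NLRP3 inflammasome, went from 4, 3 and 1 reads to 13432, 16378 and 14610, and its log2 fold change of 12.82 (SE 0.12) rests on those 8 resting reads.

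Some members were at the limit of detection in resting cells. Gbp2b and Gbp10 had 0 reads in all 3 M0 libraries. With 3 reads over the group set as a floor, Gbp2b was at least 3273-fold higher in IFNγ + LPS (2198, 2525 and 2396 reads) and Gbp10 at least 563-fold higher (377, 410 and 438 reads). Gbp4 had 1, 0 and 2 reads in M0 and 14505, 17908 and 17557 in IFNγ + LPS, a ratio of 22970 with an exact 95% counting interval from 7860 to 111400. Gbp6 had 0, 2 and 0 reads and then 1791, 2103 and 2109, a ratio of 4140 (95% interval from 1145 to 34190). Intervals and floors cover counting error only.

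**Figure D2:**
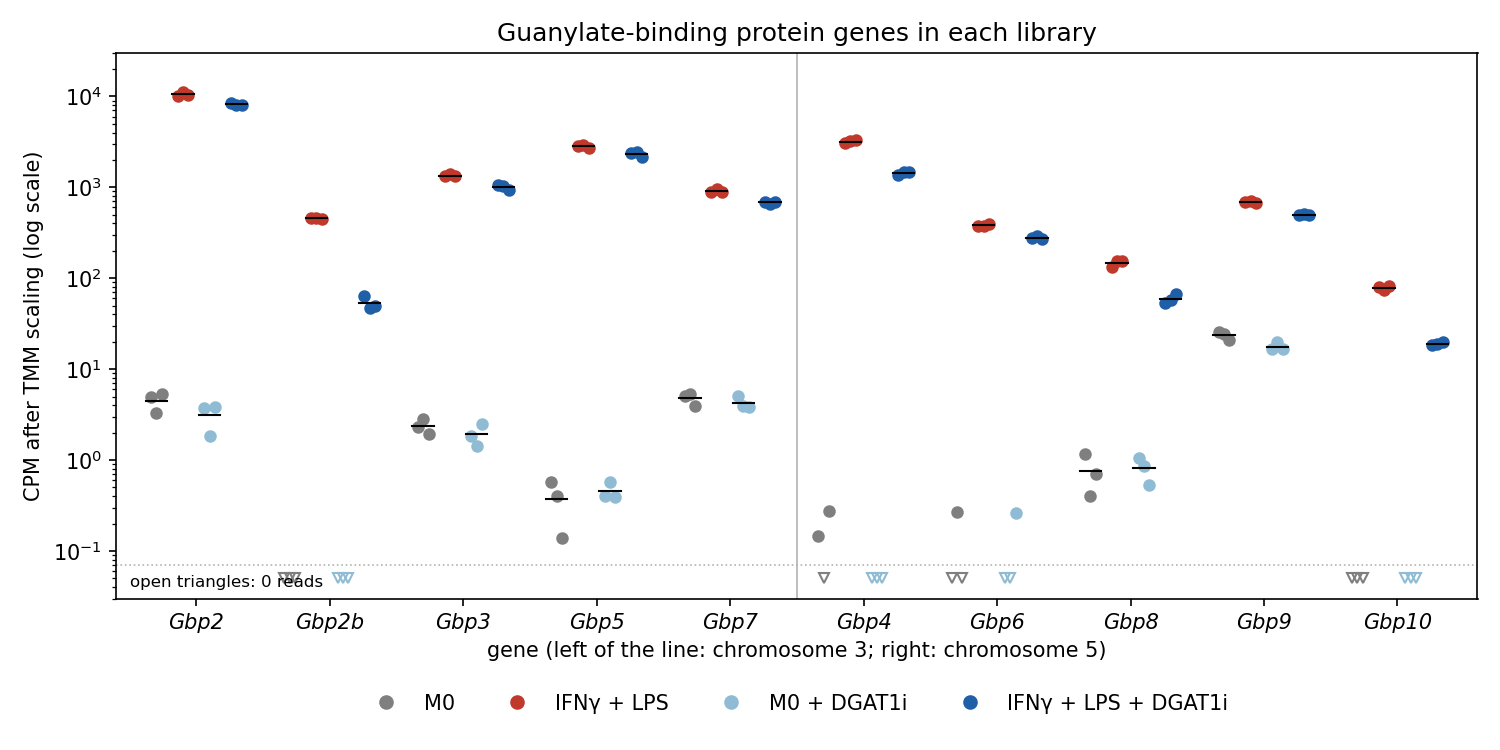
CPM of the 10 genes in each of the 12 libraries, on a log scale, with the mean of 3 as a bar where no library was at 0 and open triangles for libraries with 0 reads. Every gene is higher in the IFNγ + LPS libraries than in M0, from 29.0-fold for Gbp9 upward, and lower again with DGAT1i, with the widest gap for Gbp2b (455 and 53.5 CPM).

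The same stimulation was compared in cells that all received DGAT1i. Here 35.3% of the genes tested were higher and 35.3% lower, and the 10 members were all higher. The same 6 had passed the filter only through the stimulated groups and had to differ here too, so the fitted median of the 10 (10.58 on the log2 scale, or 8.82 with bounds and counting ratios, against -0.01 over all genes) describes these values only. Under DGAT1i the log2 fold change was 11.34 for Gbp2, 9.01 for Gbp3, 12.27 for Gbp5, 7.31 for Gbp7, 6.15 for Gbp8 and 4.82 for Gbp9. Gbp2b, again with 0 reads in the 3 resting libraries, was at least 396-fold higher, Gbp10 at least 140-fold and Gbp4 at least 10600-fold. Gbp6 gave a ratio of 3092 (95% interval from 855 to 25540). With DGAT1i present the family took 1.25% of the reads on genes (SD 0.02, n = 3), against 0.00324% in M0 + DGAT1i.

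The comparison that separated the members was DGAT1i in IFNγ + LPS. It shares the IFNγ + LPS libraries with the first comparison. All 10 members fell, where 16.3% of the genes tested were lower and 13.5% higher, and in each of them the 3 treated libraries were lower than the 3 untreated ones, as in 21.6% of all genes tested. Their median log2 fold change was -0.46, against -0.01 over all genes. The family as a whole went from 20550 ± 768 to 14620 ± 320 CPM (SD, n = 3 each). In these same libraries the 4 neutrophil markers that could be tested rose and the dendritic cell marker Xcr1 fell (from 5.53 ± 0.69 to 0.87 ± 0.40 CPM), and their part in the result was not tested. The macrophage markers ranged from 8323 to 8980 CPM in sum without DGAT1i and from 7923 to 8891 with it, but that sum is mostly Lyz2 and Adgre1. Counted singly, 3 of the 8 fell (Adgre1 by 0.36, Fcgr1 by 0.27 and Itgam by 0.60 on the log2 scale), 1 rose (Cd68, 0.48) and 4 did not pass edgeR's test, and their part was not tested either.

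Gbp2b showed the deepest fall. It was counted at 2198, 2525 and 2396 reads in IFNγ + LPS and at 308, 227 and 213 with DGAT1i. These are 463, 455 and 449 CPM against 63.4, 47.4 and 49.7 CPM, and no treated library came near an untreated one. The change was -3.09 on the log2 scale (SE 0.07, adjusted p = 4.461e-31), and 16 of the 11760 genes tested had a lower value. Its neighbour and nearest relative Gbp2, which begins on the same strand just after Gbp2b ends, was far less affected. Gbp2 had 10050, 11100 and 10400 CPM without and 8534, 8095 and 8114 CPM with the inhibitor, a change of -0.35 on the log2 scale (SE 0.06, adjusted p = 8.603e-06). Only 51 of the 50-base stretches of Gbp2b (1.84%) also occur in another gene.

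Gbp10, Gbp8 and Gbp4, all of the chromosome 5 cluster, came next. Gbp10 went from 79.4, 73.8 and 82.1 CPM to 18.3, 18.8 and 20.1 CPM (log2 fold change -2.04, SE 0.10, adjusted p = 6.423e-22). Gbp8 had 132, 154 and 156 CPM without and 53.3, 57.4 and 67.0 CPM with DGAT1i (-1.32, SE 0.08, adjusted p = 1.612e-19). Gbp4, the second most counted member in IFNγ + LPS, had 3054, 3224 and 3289 CPM there and 1365, 1476 and 1470 CPM with DGAT1i (-1.15, SE 0.05, adjusted p = 3.264e-24). In each of these the highest treated library was well under the lowest untreated one. The neighbour Gbp11, which is not among the 10, had 64.0 ± 8.69 and then 16.0 ± 1.53 CPM (log2 fold change -2.0, SE 0.12).

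The remaining 6 genes fell by small and similar amounts. Gbp6 and Gbp9 of chromosome 5 had log2 fold changes of -0.46 each, and Gbp7, Gbp3, Gbp2 and Gbp5 of chromosome 3 of -0.42, -0.42, -0.35 and -0.29. The weakest, Gbp5, had 2828, 2948 and 2737 CPM without and 2371, 2455 and 2156 CPM with DGAT1i (SE 0.05, adjusted p = 2.029e-05). Adjusted p in the other 5 ran from 3.619e-10 for Gbp9 to 8.603e-06 for Gbp2 in the same edgeR test. Both clusters held members with large and with small falls. The genes with a cysteine codon at the fourth place from the end were found at both ends of the order, with Gbp2b lowest and Gbp2 and Gbp5 highest.

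Expressed as the level left relative to the IFNγ + LPS mean, the members formed steps. Gbp2b kept 11.8% ± 1.90, Gbp10 24.3% ± 1.17, Gbp8 40.2% ± 4.77 and Gbp4 45.1% ± 1.95 (SD, n = 3 each). The 3 libraries of Gbp2b (10.4% to 13.9%) did not reach those of Gbp10 (23.4% to 25.6%), and Gbp10 did not reach Gbp8 (36.2% to 45.4%). Gbp8 and Gbp4 (42.8% to 46.3%) overlapped. Between Gbp4 and Gbp6 there was a gap, from 46.3% to 70.9%, and from there on each gene overlapped its neighbour in the order: Gbp6 72.7%, Gbp9 72.9%, Gbp7 74.9%, Gbp3 75%, Gbp2 78.4% and Gbp5 82.0%. The places of Gbp10 and Gbp6 in these steps are uncertain, since reads of shared stretches could have been given to either.

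**Figure D3:**
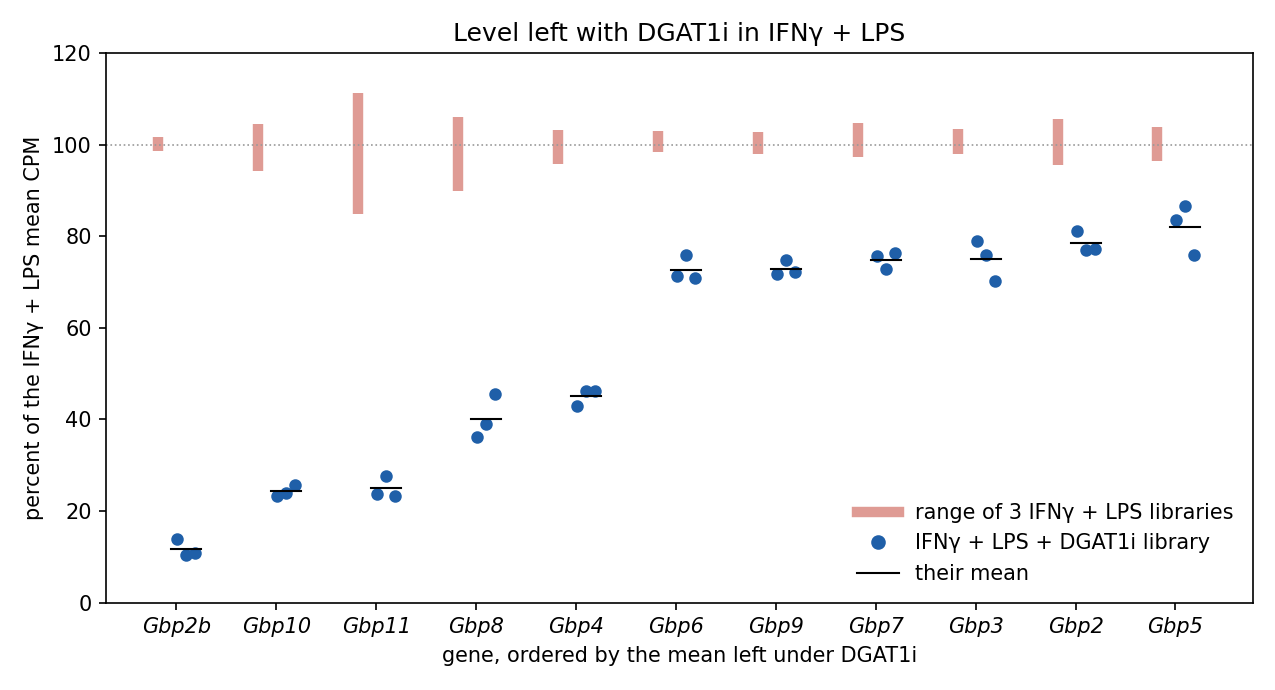
Level in each IFNγ + LPS + DGAT1i library (points, mean as a bar) as percent of the mean of the 3 IFNγ + LPS libraries, whose own range is the pale bar, for the 10 genes and Gbp11. Gbp2b, Gbp10, Gbp11, Gbp8 and Gbp4 lie at or under 46.3%, and the other 6 at or above 70.2%.

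Gbp6 and Gbp10 differ by only 30 aligned coding positions and yet kept 72.7% and 24.3%. Since reads of shared stretches could have been given to either, the 2 were also summed before the fit. The sum fell by 0.63 on the log2 scale (adjusted p = 8.617e-14). That value lies between those of the 2 genes counted apart, and closer to Gbp6, the more abundant of the pair (384 ± 9.97 and 78.4 ± 4.21 CPM in IFNγ + LPS). A sum has to lie there, so it does not show how shared reads were assigned.

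The fall changed the make-up of the family. In IFNγ + LPS, Gbp2 made up 51.2% ± 0.69 of the reads of the 10 genes, Gbp4 15.5% ± 0.54 and Gbp5 13.8% ± 0.41 (SD, n = 3 each). With DGAT1i, Gbp2 made up 56.4% ± 1.00, Gbp5 15.9% ± 0.84 and Gbp4 9.84% ± 0.61. The share of Gbp2b went from 2.22% ± 0.10 to 0.366% ± 0.05. Resting cells had another make-up altogether, with Gbp9 at 64.5% ± 1.32 in M0 and 62.3% ± 6.55 in M0 + DGAT1i. Per length, Gbp2b moved from level with Gbp7 to 19.0 ± 3.07 RPKM with DGAT1i, in the range of Gbp8 (17.2 ± 2.04 RPKM) and under Gbp6 (46.9 ± 1.76 RPKM). Gbp4 left the group it had formed with Gbp5 and Gbp3, at 192 ± 8.32 RPKM against 351 ± 23.2 and 310 ± 18.3.

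**Figure D4:**
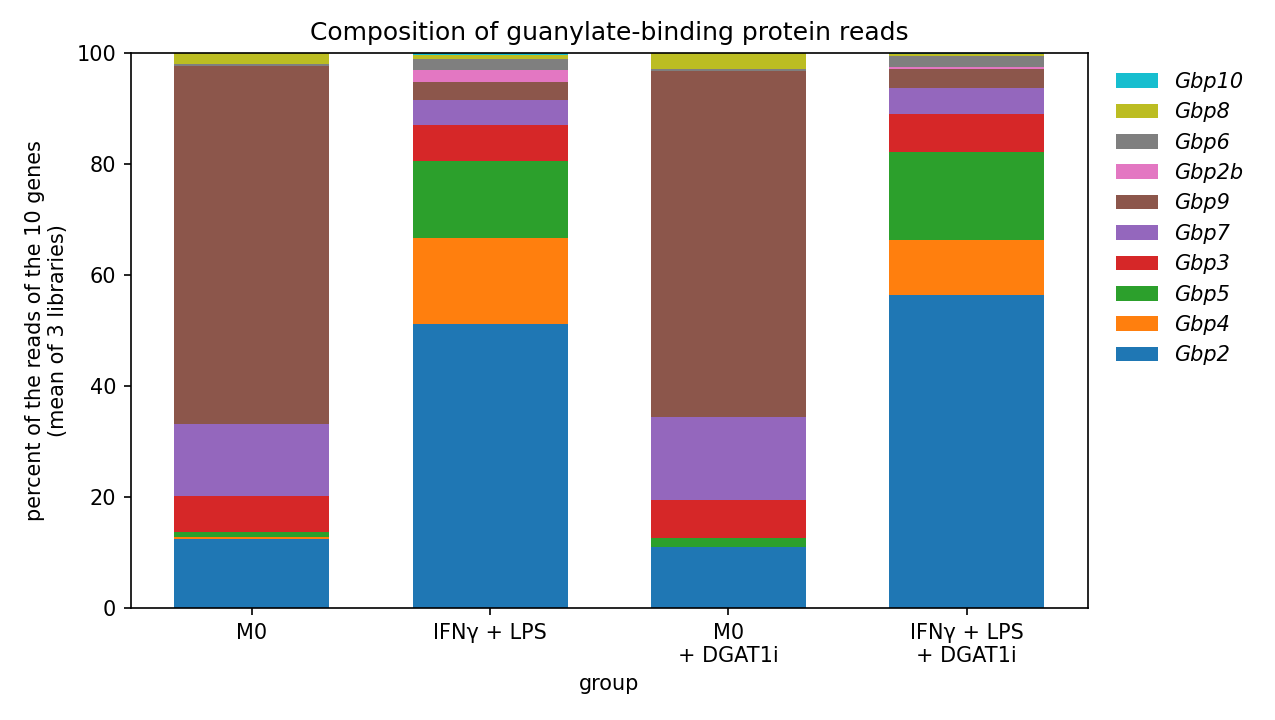
Reads of each gene as percent of the reads of all 10, as the mean of 3 libraries per group. Gbp9 fills 64.5% of the bar in M0, and Gbp2 fills 51.2% in IFNγ + LPS and 56.4% with DGAT1i, where the Gbp4 part narrows from 15.5% to 9.84%.

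In resting cells DGAT1i was compared with M0, where 13.4% of the genes tested were lower and 11% higher. Of the members 1 was lower, Gbp9, and 0 were higher in edgeR, with the same counts in DESeq2, and 3 of the 10 had an unadjusted p under 0.05. Gbp9 had 178, 181 and 151 reads in M0 and 124, 141 and 126 in M0 + DGAT1i, or 23.7 ± 2.45 and 17.7 ± 2.00 CPM, and the groups did not overlap (log2 fold change -0.42, SE 0.10, adjusted p = 5.324e-04 from edgeR). Gbp2 had 4.94, 3.33 and 5.29 CPM and then 3.72, 1.85 and 3.83, which do overlap (-0.51, SE 0.20, adjusted p = 0.0835). Gbp3, Gbp7, Gbp8 and Gbp5 had log2 fold changes of -0.28, -0.15, 0.13 and 0.27, with standard errors from 0.18 to 0.53. No fold is given for Gbp2b and Gbp10, at 0 reads in both resting groups, for Gbp4, with 3 reads and 0, and for Gbp6, with 2 and 2. Whether these 4 respond to DGAT1i in resting cells was not detectable at this depth.

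The response to DGAT1i was then compared between IFNγ + LPS and M0, as a difference of 2 log2 fold changes. For all genes 8.66% had a higher and 9.80% a lower value in IFNγ + LPS, and the members gave 1 lower (Gbp8) and 0 higher, in edgeR as in DESeq2, with an unadjusted p under 0.05 for that 1 alone. Gbp9, the member measured best in both states, fell by 0.46 in IFNγ + LPS and by 0.42 in M0 on the log2 scale, a difference of -0.03 (SE 0.11, adjusted p = 0.871). For Gbp7 the difference was -0.26 (SE 0.19, adjusted p = 0.403), for Gbp3 -0.13 (0.27, adjusted p = 0.814) and for Gbp2 0.16 (0.21, adjusted p = 0.689). For Gbp8 it was -1.45 (SE 0.51, adjusted p = 0.0397), which rests on 16 reads over the 3 M0 libraries and 18 over the 3 M0 + DGAT1i libraries. It missed the threshold when any of 7 single libraries was left out, with adjusted p up to 0.191. With 0 resting reads, the difference could not be formed for Gbp2b and Gbp10.

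The genes that carry the IFNγ signal to the family were counted next to it. Of 14 genes of IFNγ signalling, 13 rose and 1 fell in IFNγ + LPS (37.1% and 36.2% of all genes tested), where Socs1 and Socs3 passed the filter only through the stimulated groups. With DGAT1i 7 fell and 0 rose in edgeR (all genes 16.3% and 13.5%), with a median of -0.13 on the log2 scale (8 lower and 1 higher at an unadjusted p under 0.05). The one that fell with stimulation was the receptor subunit Ifngr1, at 150 CPM in M0 and 52.9 in IFNγ + LPS. It had 52.8 CPM with DGAT1i, and the second subunit Ifngr2 went from 232 to 208 CPM (-0.16, adjusted p = 0.0346). Of the kinases, Jak2 fell (-0.26, adjusted p = 7.579e-05) and Jak1 had -0.10 (adjusted p = 0.119). Irf1, which acts on Gbp promoters, had 1986 ± 7.71 and 1925 ± 52.0 CPM (-0.05, adjusted p = 0.542), and the feedback inhibitor Socs1 436 ± 20.4 and 427 ± 9.63 CPM (-0.03, adjusted p = 0.743). The largest fall on this list was Usp18, an inhibitor of type I interferon signalling, at -0.70.

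Related GTPases did not all follow the family. Of the 10 immunity-related GTPases, smaller GTPases that act on the same vacuoles, all 10 were higher with IFNγ + LPS, where 37.1% of all genes tested were. Gm4841, Iigp1, Tgtp1 and Tgtp2 had between 0 and 1.15 CPM in M0, so these 4 passed the filter only through the stimulated groups and had to differ. With DGAT1i in IFNγ + LPS 5 of the 10 fell and 2 rose (all genes 16.3% and 13.5%, median of the 10 -0.12). They ranged from -0.96 for Gm4841 to 0.22 for Gm4951. Of 5 other large GTPases, Mx1, Mx2, Gvin1 and Gbp11 were higher with IFNγ + LPS, Gbp11 again passing the filter only through the stimulated groups. The fifth, Atl3, an atlastin of the endoplasmic reticulum, fell slightly, from 131 to 116 CPM (-0.18, adjusted p = 0.0179 from edgeR). With DGAT1i the first 4 fell and 0 rose (median of the 5 -0.49), with Gbp11 lowest at -2.0 and Atl3 at -0.02 (adjusted p = 0.875).

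Genes that act with guanylate-binding proteins in inflammasomes moved in both directions. Of 11, 10 rose and 1 fell with IFNγ + LPS (all genes 37.1% and 36.2%), where Il1b and Mefv passed the filter only through the stimulated groups. With DGAT1i 6 fell and 3 rose, against 16.3% and 13.5% of all genes (median -0.25). Casp4, the mouse gene of caspase-11 that senses LPS in the cytosol, went from 234 ± 18.1 to 190 ± 3.09 CPM (-0.30, adjusted p = 5.077e-05). The DNA sensor Aim2 (-0.31), the sensor Nlrp3 (-0.54) and the pore-forming Gsdmd (-0.27) also fell. The largest fall was the cytokine Il1b (-1.68) and the largest rise the adaptor Pycard (0.75).

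Of 11 genes of ATG8 conjugation, the autophagy machinery that helps to place these GTPases on vacuoles, 8 rose and 2 fell with IFNγ + LPS, where 37.1% of all genes tested rose and 36.2% fell. With DGAT1i, where 13.5% rose and 16.3% fell, 5 rose and 0 fell in edgeR (6 and 2 at an unadjusted p under 0.05, median 0.21), and Gabarapl1, an ATG8 protein, rose most (0.61). Of 7 tested genes of vacuole ubiquitin and adaptors, all 7 rose with IFNγ + LPS, and with DGAT1i the ubiquitin ligase Trim21 fell most (-0.57) among 3 that fell, and Traf6 (0.41) was the 1 that rose. Of the 6 prenylation genes 0 passed edgeR's test with DGAT1i in IFNγ + LPS, and 1 was higher at an unadjusted p under 0.05. Fntb, the beta subunit of the farnesyl transferase, had -0.38 (adjusted p = 0.411) at 3.97 and 3.02 CPM, and Pggt1b, that of the geranylgeranyl transferase, -0.10 (adjusted p = 0.555). With IFNγ + LPS alone 1 of these 6 rose and 2 fell, shares no higher than those of all genes tested.

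**Figure D5:**
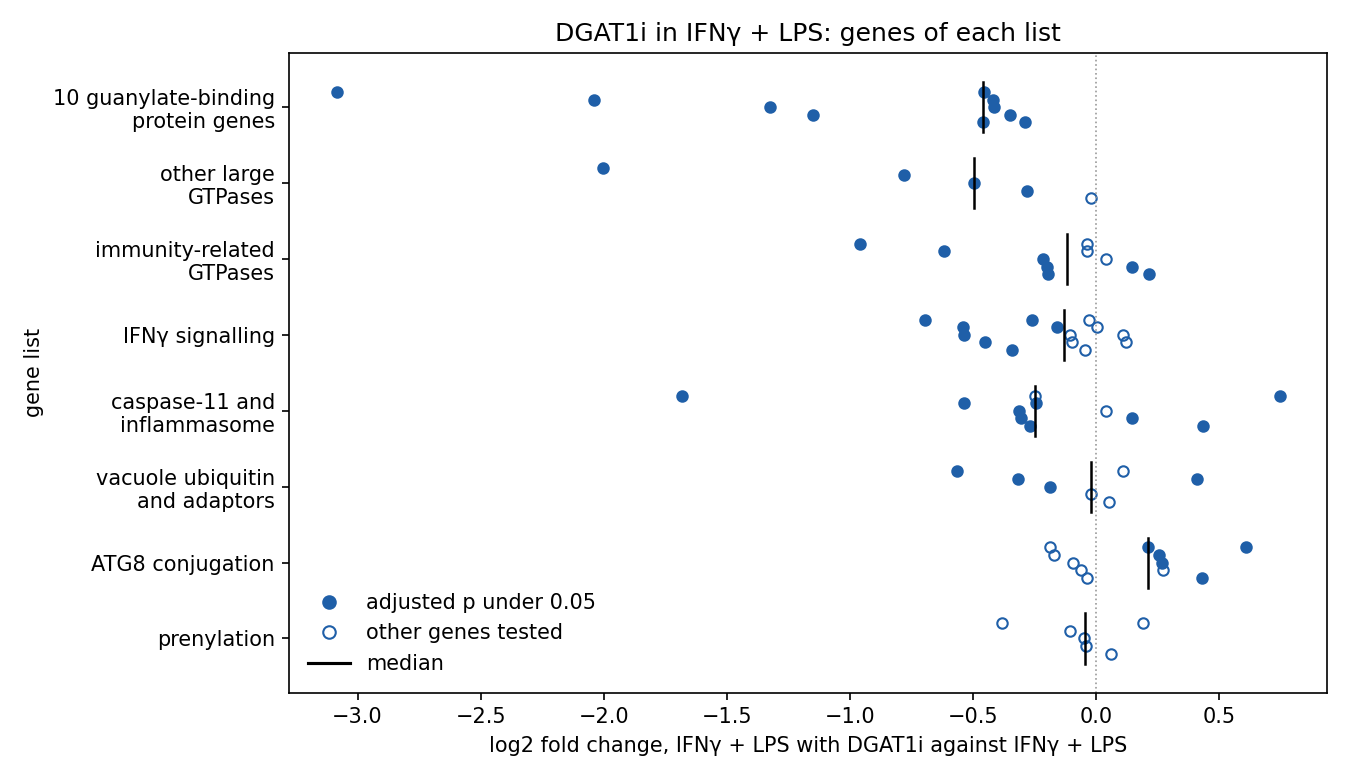
Log2 fold change with DGAT1i in IFNγ + LPS for each gene tested, by list, with filled points for an adjusted p under 0.05 and a bar at the list's median. All 10 guanylate-binding protein genes lie left of 0 (median -0.46), as do the 5 other large GTPases, 4 of them past the test, whereas 6 of the 11 ATG8 conjugation genes, 5 of them past the test, lie to the right (median 0.21).

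Across the 12 libraries the genes whose level was most like the mean profile of the family, among 10162 genes compared, were Cxcl11, Gm4841, BC023105, Serpina3f and Tap1, with Pearson r from 0.9995 to 0.9998. For Gbp2b alone they were Klrk1 (r = 0.9993), Gbp11 (0.9986), Ghitm (0.9983), Rrbp1 and Ncf1 (0.9977 each). The 12 points fall in 4 groups, with a wide step between resting and stimulated cells, and r is a description of these libraries. Klrk1, which encodes the receptor NKG2D, had 0 CPM in M0, 22.3 in IFNγ + LPS and 7.16 with DGAT1i, and Ghitm had 178, 468 and 361.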

How the data were processed

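RNA from 12 macrophage libraries was sequenced. The authors deposited raw read counts per gene, made with a pipeline of their institute on GRCm38, and named DESeq2 without a design. Not given in the sources used here are the aligner, counting tool and annotation release. The study names a stranded and the labels a strand-independent library kit, so antisense reads may be included. Of the gene identifiers, 47224 matched GENCODE M21 without version. Differences were tested with edgeR 4.0.16 in R 4.3.3 (filterByExpr, which kept 11760 genes, TMM scaling, 1 mean per group over all 12 libraries, robust glmQLFit, Benjamini-Hochberg adjustment over all genes tested, threshold 0.05). RPKM used the annotated exon length. Log2 CPM for likeness used a prior count of 2 and genes with an average of at least 2. Stretches of 50 and 75 bases, coding ends and promoters were compared in Python 3.11.15, with alignments in Biopython 1.88. The fit was tested on simulated data.

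The 10 members and the gene lists were chosen with earlier results of these data known. All members are named, and of the lists 14 genes set by name (1 is not reported here) with the largest rise and fall for DGAT1i in IFNγ + LPS, and the 5 genes most like the family and most like Gbp2b. Alternatives were other scalings and filters, DESeq2 1.42.0, fits on 6 libraries, a replicate block, Gbp6 and Gbp10 summed, and leaving out each library.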

Additional observations from a re-analysis of the deposited data

Results flagged for a closer look

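Gbp8 passed the test of the difference between its DGAT1i responses in stimulated and in resting cells, on few resting reads. Its log2 fold change in IFNγ + LPS minus that in M0 was -1.45 (standard error 0.51, adjusted p = 0.0397 from edgeR). The stimulated libraries gave 629, 853 and 835 reads without and 259, 275 and 287 with DGAT1i, while the resting ones gave 8, 3 and 5 reads and 8, 6 and 4. Gbp8 passed the filter on low counts only through the stimulated groups. The call was lost when any of 7 single libraries was left out (adjusted p up to 0.191) and with scaling by library size only (adjusted p = 0.0508). A call for 1 member of 10 is near the 9.80% of all genes tested with a lower value, so it is no result about the family.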

How the results depend on the processing

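All 10 members stayed lower with DGAT1i in IFNγ + LPS in each of the settings run, except that Gbp6 and Gbp10 have 1 value between them where they were summed. They also stayed higher with IFNγ + LPS, with and without DGAT1i, which tests only Gbp2, Gbp3, Gbp7 and Gbp9, since the other 6 passed the filter only through the stimulated groups. Without 1 library, the log2 fold change for DGAT1i in IFNγ + LPS ranged from -3.23 to -3.01 for Gbp2b, from -2.09 to -2.01 for Gbp10 and from -0.33 to -0.24 for Gbp5, the weakest. For DGAT1i in M0 the count of members lower was 2 with scaling by library size only, where Gbp2 passed (-0.56, adjusted p = 0.0471), and ranged from 1 to 2 without 1 library, where Gbp2 passed without M0 replicate 2 (-0.69) or M0 + DGAT1i replicate 3 (-0.68). For the difference between the DGAT1i responses the count of members lower was 0 by library size only, where Gbp8 had -1.40 (adjusted p = 0.0508), and ranged from 0 to 1 without 1 library, with adjusted p for Gbp8 from 0.0197 to 0.191. It was 0 without M0 replicate 2 or 3 or IFNγ + LPS replicate 2 or 3. It was also 0 without M0 + DGAT1i replicate 1 or 2, or IFNγ + LPS + DGAT1i replicate 2. The cause of these changes, and of the others given here, was not tested. Without Gbp6 and Gbp10, the share of Gbp2 was 52.3% in IFNγ + LPS and 57.6% with DGAT1i. Library size only moved the median of all genes from 0.01 to -0.46 for IFNγ + LPS against M0 and from -0.01 to -0.43 under DGAT1i, and the share of calls that were higher from 50.6% to 25.1%, from 50.0% to 25.6%, from 45.2% to 29.7% for DGAT1i in M0 and from 46.9% to 58.2% for the difference. Replicate numbers were not taken to pair the libraries, since the study does not say that they mark an animal or day. Correlations of libraries' deviations were weak. They ran from -0.02 to 0.07 (median 0.01) in the 18 pairs with the same number. In the 36 pairs with another number they ran from -0.06 to 0.04 (median -0.0044). As a hint from the data, not the design, 9 of 12 libraries correlated best with one of their own number, and 10 of 12 had their best mean correlation with it. With the replicate block, 3568 genes were called for DGAT1i in IFNγ + LPS, against 3508, and the block changed the call of no member. Members with under 10 reads in a resting library limit what can be seen there.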
